A study of Mus musculus with 6 samples.

Results

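Glycolysis in the testis draws on 2 sets of genes, the enzymes used by most tissues and a set of isozymes that male germ cells make. Reads were counted for 38 genes chosen by name: the enzymes from hexokinase to lactate dehydrogenase, the subunits of the pyruvate dehydrogenase complex, and carriers of glucose and of lactate and pyruvate. They are 38 of the 53700 gene identifiers in the count tables, and 37 of them had enough reads to be tested among 21902 genes. Pklr, the pyruvate kinase of liver and red blood cells, had 0 to 2 reads per library and was not tested. Of the 38, 8 are germ-cell isozymes (Aldoart1, Aldoart2, Gapdhs, Pgk2, Eno4, Ldhc, Ldhal6b and Pdha2).

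Whole testes came from mice at postnatal day 45, whose strain is given as Msl3em1Forni/C57BL/6J in both groups, and total RNA was read from 1 end for 75 bases. In 3 libraries the genotype is MSL3 WT, and in the other 3 it is MSL3 cKO, a conditional knockout of a floxed Msl3 allele, one whose marked segment a recombinase can remove. Msl3 encodes a chromodomain protein of the MSL histone acetyltransferase complex. The recombinase line, the cells in which it acts and the deleted exons are not given in the sources used here. The samples are named biological replicates, and p-values measure the spread between these libraries.

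Glycolysis splits glucose into pyruvate, which lactate dehydrogenase turns into lactate or the pyruvate dehydrogenase complex turns into acetyl-CoA in mitochondria. Sperm rely on glycolysis along the tail for movement, and several of its enzymes are replaced there by germ-cell forms bound to the fibrous sheath. Some of these genes, among them Pgk2 and Pdha2, are intronless autosomal copies of X-linked genes, and the X chromosome is silenced in spermatocytes during meiosis. Sertoli cells, the nurse cells of the tubules, take up glucose and pass lactate to the germ cells.

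The 6 libraries held 56991431 to 73766444 reads assigned to single genes. Msl3 itself stood at 16.0, 18.9 and 15.9 CPM (reads scaled to library size) in the WT-labelled libraries and at 16.0, 14.8 and 15.8 CPM in the cKO-labelled ones. These ranges overlap, with a log2 fold change (cKO minus WT, as for every fold change here) of -0.12 ± 0.088 (SE) and an adjusted p of 0.551 (edgeR quasi-likelihood test, Benjamini-Hochberg, as for every adjusted p below unless another tool is named). The count covers all exons and does not check a deletion of part of the gene, so WT and cKO stand for the labels of the libraries. Markers of germ cells and of Sertoli and Leydig cells were detected. The 5 epididymis markers had at most 12 reads per library, with 1 of them at 0 in every library. Of the 5 markers of skeletal muscle and fat, Adipoq had 299 to 568 reads per library and Plin1 225 to 399. Acta1, Ckm and Myh4 had 3 to 92. Adipoq overlapped between the groups, with a log2 fold change of -0.43 and an adjusted p of 0.305.

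A 75-base read can tell a germ-cell isozyme from its partner only where their sequences differ. For 5 pairs the coding sequences were aligned. The most alike 75-base window without gaps is printed, as the closest match between the 2 genes of a pair. Letters in capitals are the bases at which the 2 genes of a pair differ. The coding sequences are those of the GENCODE M21 transcripts on GRCm38, the Genome Reference Consortium name of mm10, and are written 5′ to 3′ on the strand of the gene. For phosphoglycerate kinase, Pgk1 has this window in exon 4 of 11 (chrX:106194698-106194772, + strand), and Pgk2 in its single exon (chr17:40208123-40208197, - strand), with 9 differences.
Pgk1: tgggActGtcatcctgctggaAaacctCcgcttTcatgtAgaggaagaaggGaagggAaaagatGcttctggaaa
Pgk2: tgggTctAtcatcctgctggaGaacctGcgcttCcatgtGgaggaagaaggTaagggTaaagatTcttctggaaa
For the alpha subunit of pyruvate dehydrogenase E1, Pdha1 has the window across the junction of exons 3 and 4 of 11 (chrX:160130215-160132122, - strand, intron left out), and Pdha2 in its single exon (chr3:141211431-141211505, - strand), with 5 differences.
Pdha1: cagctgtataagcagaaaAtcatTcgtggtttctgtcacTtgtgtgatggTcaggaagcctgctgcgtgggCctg
Pdha2: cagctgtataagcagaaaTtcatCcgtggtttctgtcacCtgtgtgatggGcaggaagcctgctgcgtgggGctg
For lactate dehydrogenase, the windows span the junction of exons 5 and 6 of 8 in both Ldha (chr7:46851016-46851908, + strand) and Ldhc (chr7:46873043-46875707, + strand), 2 genes that lie beside each other, and differ at 10 bases.
Ldha: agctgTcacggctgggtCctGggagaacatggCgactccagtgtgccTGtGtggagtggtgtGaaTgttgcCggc
Ldhc: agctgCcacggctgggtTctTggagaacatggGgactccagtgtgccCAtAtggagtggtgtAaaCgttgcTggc
For glyceraldehyde-3-phosphate dehydrogenase, Gapdh has the window in exon 5 of 7 (chr6:125162551-125162625, - strand), and Gapdhs across the junction of exons 8 and 9 of 11 (chr7:30732059-30732264, - strand), with 9 differences.
Gapdh: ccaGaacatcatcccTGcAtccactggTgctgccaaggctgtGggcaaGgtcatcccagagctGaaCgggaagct
Gapdhs: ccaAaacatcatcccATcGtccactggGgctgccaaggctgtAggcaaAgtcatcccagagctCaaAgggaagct
For aldolase, Aldoa has the window in exon 5 of 9 (chr7:126796676-126796750, - strand), and Aldoart1 in its single exon (chr4:72851946-72852020, - strand), with 0 differences.
Aldoa: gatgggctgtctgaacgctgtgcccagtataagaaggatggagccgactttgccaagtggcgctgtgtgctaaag
Aldoart1: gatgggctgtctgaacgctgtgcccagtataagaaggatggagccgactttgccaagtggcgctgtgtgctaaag

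Over the whole coding sequence, identity was 79.3% for Pgk1 and Pgk2, 75.6% for Pdha1 and Pdha2, 73.7% for Ldha and Ldhc, and 72.3% for Gapdh and Gapdhs. None of the windows of these 4 pairs was identical. The aldolases are closer: Aldoart1 is 94.2% and Aldoart2 91.7% identical to Aldoa. Of 1018 aligned windows, 19 were identical between Aldoa and Aldoart1 and 0 between Aldoa and Aldoart2. Eno1 and Eno4 are the least alike, at 62.9% identity over the aligned bases. Only 38 windows without gaps could be compared for them, with at least 30 differences in each.

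The somatic genes, and not the germ-cell genes, share most sequence with other places in the genome. Of the 75-base stretches of the coding transcript, 88.1% in Gapdh, 67.5% in Pgk1, 65.4% in Eno1 and 40.6% in Pgam1 also occur in a gene elsewhere, for Gapdh in 121 others and mostly in processed pseudogenes. The main partner of Eno1 is Eno1b. By contrast, 0.962% of Aldoart1 and 0% of each of the other 7 germ-cell isozymes occur in a gene elsewhere. STAR's gene counts keep only uniquely mapped reads, so the levels of Gapdh, Pgk1, Eno1 and Pgam1 are uncertain. Ratios to them are therefore also given with length counted as the stretches that occur in no gene elsewhere. These were taken over all transcripts of a gene (Gapdh 3710, Pgk1 1058, Eno1 4278 and Pgam1 1289). They were also taken over the coding transcript alone (Gapdh 142, Pgk1 569, Eno1 675 and Pgam1 1010). In both cases the reads are those of all exons of the gene. The coding transcript leaves out other exons, so with it reads and length do not match. Ldhal6b lies wholly within the exons of an antisense gene, Gm29050, so its reads can be told from that gene's only by strand.

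**Figure D1:**
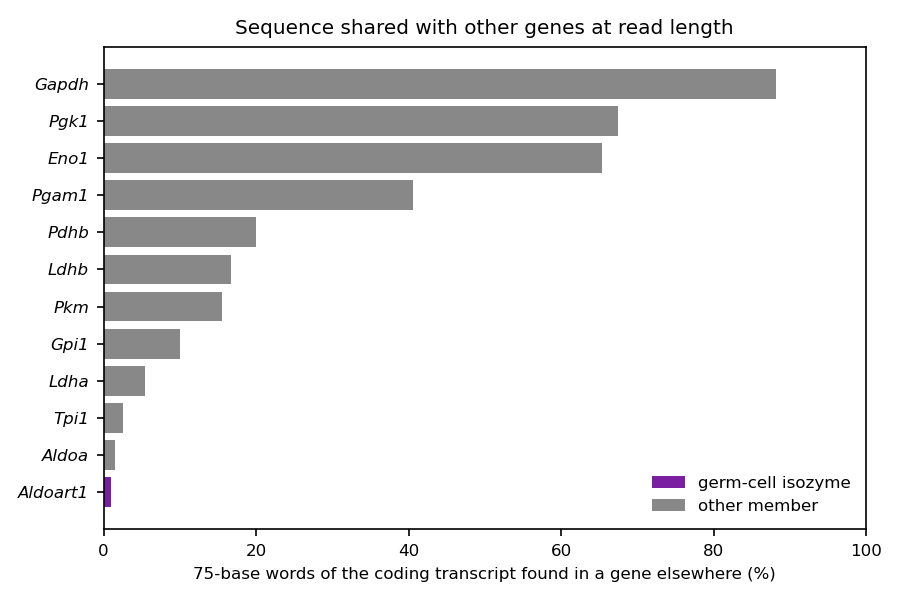
Share of the distinct 75-base stretches of each coding transcript that also occur in a gene elsewhere in GENCODE M21 (x axis, percent) for the 12 genes above 0 (y axis). Gapdh, Pgk1 and Eno1 lead, at 88.1%, 67.5% and 65.4%, and Aldoart1, at 0.962%, is the one germ-cell isozyme shown.

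Levels are given as CPM per kilobase of all annotated exons of a gene, which allows genes to be compared, but another choice of length moves them. Averaged over the 6 libraries, Ldhc, the lactate dehydrogenase of spermatocytes and sperm, was highest at 2368 CPM per kb. Gapdhs followed at 962, Pgam2 (the muscle form of phosphoglycerate mutase) at 887, Pgk2 at 693 and Ldhal6b at 455 CPM per kb. The ranges of Gapdhs and Pgam2 over the libraries overlapped, so their order is not resolved. With these lengths 4 of the 5 highest genes are germ-cell isozymes. With the length of the longest transcript it is 3 of 5, since Ldha then averages 472 CPM per kb beside 455 for Ldhal6b, with overlapping ranges. Ldhc, Gapdhs, Pgam2 and Pgk2 were the 4 highest with either length.

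The other germ-cell genes lay lower. Aldoart2 stood at 215, Pdha2 at 81.7, Aldoart1 at 65.9 and Eno4 at 29.4 CPM per kb. The highest of the remaining genes were Ldha at 259, the glucose carrier Slc2a3 at 209, Hk1 at 187, Aldoa at 150 and Tpi1 (triosephosphate isomerase) at 133 CPM per kb. With the longest transcript as length, Hk1 reached 374 and Aldoa 281 CPM per kb. At the other end, Slc2a1 stood at 2.35, Aldoc at 2.01, Hk3 at 0.349 and Eno2, the neuronal enolase, at 0.058 CPM per kb. Together the 37 genes took 1.52% to 1.67% of the assigned reads of a library.

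**Figure D2:**
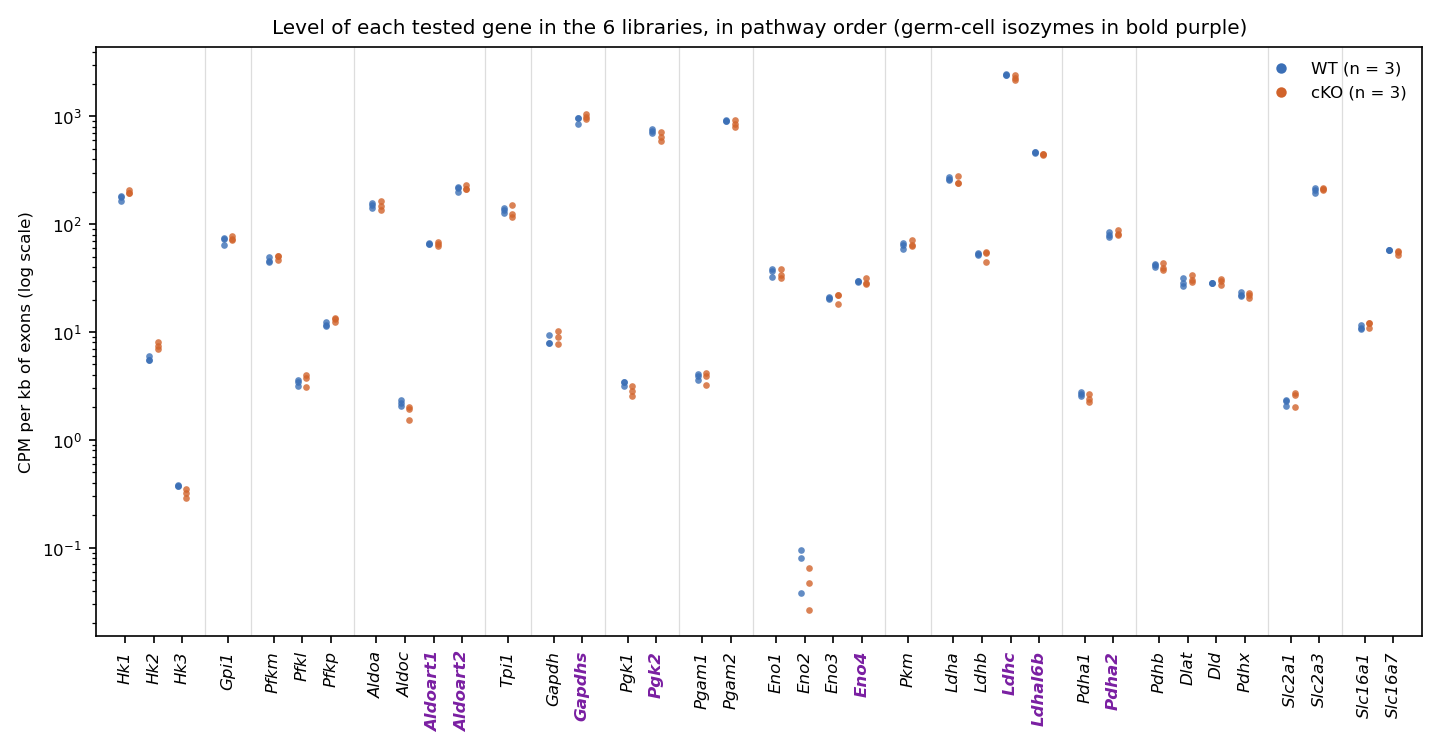
Level of each of the 37 tested genes (x axis, in pathway order) in CPM per kilobase of exons (y axis, log scale), 1 point per library, 3 WT and 3 cKO, with the germ-cell isozymes in bold purple. Values span from Ldhc at 2368 to Eno2 at 0.058 CPM per kb on average, and the 2 groups lie close together for most genes.

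At 6 steps a germ-cell isozyme can be set against its somatic partners, and its share of the length-scaled reads of the step was computed in each library. Germ-cell forms made up nearly all of phosphoglycerate kinase and pyruvate dehydrogenase E1 alpha, most of glyceraldehyde-3-phosphate dehydrogenase and lactate dehydrogenase, and the smaller part of enolase under each length tried. At the aldolase step, which form led depended on the length. The 2 groups overlapped at every step with each length, and with exon lengths no difference of means passed an exact two-sided permutation test, which with 3 against 3 libraries cannot give a p below 0.1 and so could not pass a threshold of 0.05 at any size of difference.

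For phosphoglycerate kinase, Pgk2 held 99.5%, 99.5% and 99.6% in WT and 99.6%, 99.6% and 99.5% in cKO. Pgk2 was 203 to 249 times as high as Pgk1 per kb of exons. The ratio was 100 to 123 per unshared stretch of all transcripts, and 53.9 to 66.2 per unshared stretch of the coding transcripts. For glyceraldehyde-3-phosphate dehydrogenase, Gapdhs held 99.1% ± 0.0709 (SD, n = 3) in WT and 99.1% ± 0.0704 in cKO. Gapdhs exceeded Gapdh, the usual housekeeping reference, by 103 to 121 times per kb of exons. Per unshared stretch of all transcripts it did so by 96.7 to 114 times, with a share of 98.98% to 99.1% over the libraries. Per unshared stretch of the coding transcripts it was 4.40 to 5.17 times, with a share of 81.5% to 83.8%. That last length sets the Gapdh reads of all exons against 142 stretches of 1 transcript, so reads and length do not match. The size of the Gapdhs share thus moves with the length and is not resolved by these counts. For pyruvate dehydrogenase E1 alpha, Pdha2 held 97.0%, 96.5% and 96.9% in WT and 97.4%, 97.3% and 96.8% in cKO. Both X-linked partners, Pgk1 and Pdha1, were thus at low levels beside their autosomal copies in each of the 6 libraries.

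For lactate dehydrogenase, Ldhc and Ldhal6b together held 90.2% ± 0.277 in WT and 90.0% ± 0.305 in cKO, an exact permutation p of 0.5 (n = 3 per group, as at every step). With the longest transcripts as length these shares were 85.7% and 85.5%. Ldhc alone was 8.77 to 9.50 times as high as Ldha per kb of exons, and 5.54 to 6.01 times with the longest transcripts. For aldolase, Aldoart1 and Aldoart2 held 64.6% ± 0.535 in WT and 65.4% ± 1.27 in cKO (exact permutation p = 0.4). With the longest transcripts as length they held 49.4% ± 0.580 in WT and 50.3% ± 1.40 in cKO, and of the reads not scaled by length 52.3% and 53.2%, so no form can be said to lead. Aldoart2 was 3.05 to 3.36 times as high as Aldoart1. For enolase, Eno4 held 34.2% ± 1.36 in WT and 34.7% ± 0.411 in cKO (exact permutation p = 0.6). With the longest transcripts these shares were 19.97% and 20.4%, and per unshared stretch of all transcripts 30.2% and 30.7%. Per unshared stretch of the coding transcripts, where reads and length do not match, they were 8.89% and 9.14%. The exact permutation p-values of the other steps were 1 for glyceraldehyde-3-phosphate dehydrogenase, 0.8 for phosphoglycerate kinase and 0.3 for pyruvate dehydrogenase E1 alpha, and over the 6 steps the Benjamini-Hochberg values were 0.9 to 1.

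**Figure D3:**
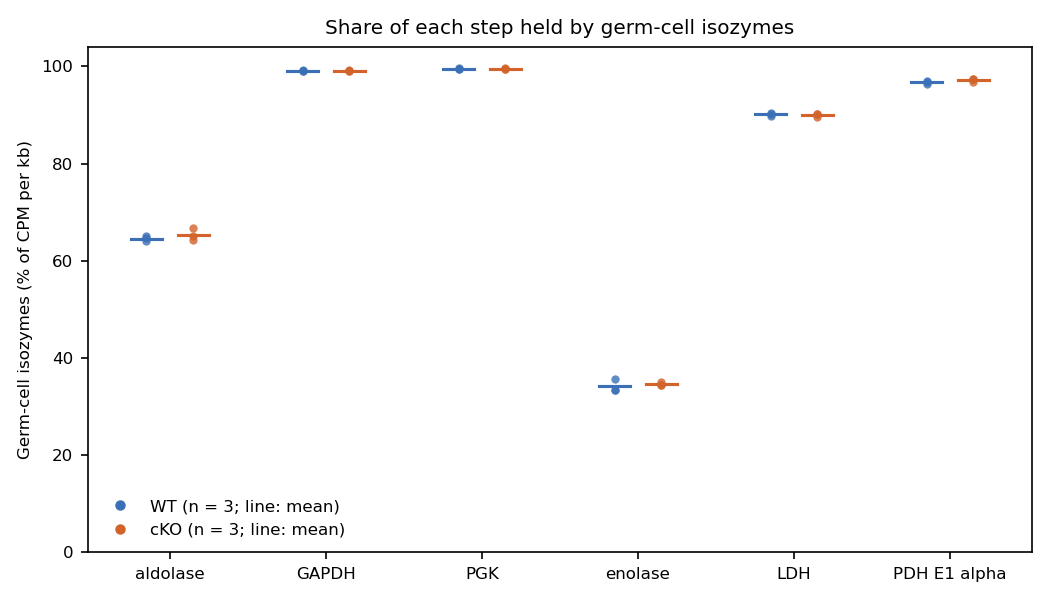
Share of each step's CPM per kb that fell on germ-cell isozymes (y axis, percent) at 6 steps (x axis), with length as all exons of a gene, 1 point per library and a line at the mean of the 3 WT and the 3 cKO libraries. The 2 groups overlap at each step, at 99.1% on average for GAPDH in both, 90.2% and 90.0% for LDH, and 34.2% and 34.7% for enolase.

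At steps with no germ-cell gene among the 8, 1 form could also exceed another. Pgam2 was 205 to 250 times as high as Pgam1, the form of most tissues, though 40.6% of the Pgam1 coding transcript is shared with pseudogenes. The ratio was 146 to 178 per unshared stretch of all transcripts and 114 to 140 per unshared stretch of the coding transcripts. Slc2a3, the high-affinity glucose carrier GLUT3, was 76.0 to 105 times as high as Slc2a1 (GLUT1). Slc16a7, the lactate and pyruvate carrier MCT2, exceeded Slc16a1 (MCT1) by 4.30 to 5.46 times per kb of exons. With the longest transcripts as length the ratio was 4.64 to 5.89. With the coding transcript as length, which sets reads of all exons against 1 transcript, it was 21.4 to 27.1. Phosphofructokinases set the pace of glycolysis in many tissues. Among them, Pfkm was 3.76 to 4.04 times as high as Pfkp per kb of exons. With the longest transcripts this ratio was 2.82 to 3.04, and with the coding transcript as length, again with reads of all exons, 1.36 to 1.46. The direction of each of these ratios was the same with each length, and the size was not.

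Between the genotypes, none of the 37 genes passed an adjusted p of 0.05. Over all 21902 genes the same test called 4, or 0.0183%. The median log2 fold change of the 37 genes was -0.00346 (18 above 0 and 19 below, cKO minus WT), beside 0.00311 over all genes tested. For 27 of the 37, the fold change lay within 0.1 of 0 on the log2 scale. At an unadjusted p under 0.05 there were 4 of 37, beside 13.9% of all genes: Hk1 and Hk2 were higher in cKO, and Aldoc and Pgk2 lower. DESeq2 called 1 of the members, Hk2, and 193 of 13761 genes in all, or 1.4%.

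Groups without any overlap were found for 6 of the 37 genes, beside 18.9% of all genes, a share close to the members' own. Hk1 and Hk2 were higher in every cKO library (10% of all genes were), and Hk3, Aldoc, Ldhal6b and Slc16a7 lower (8.85% of all genes). In these bulk samples, fewer cells of a type and less RNA per cell cannot be told apart.

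**Figure D4:**
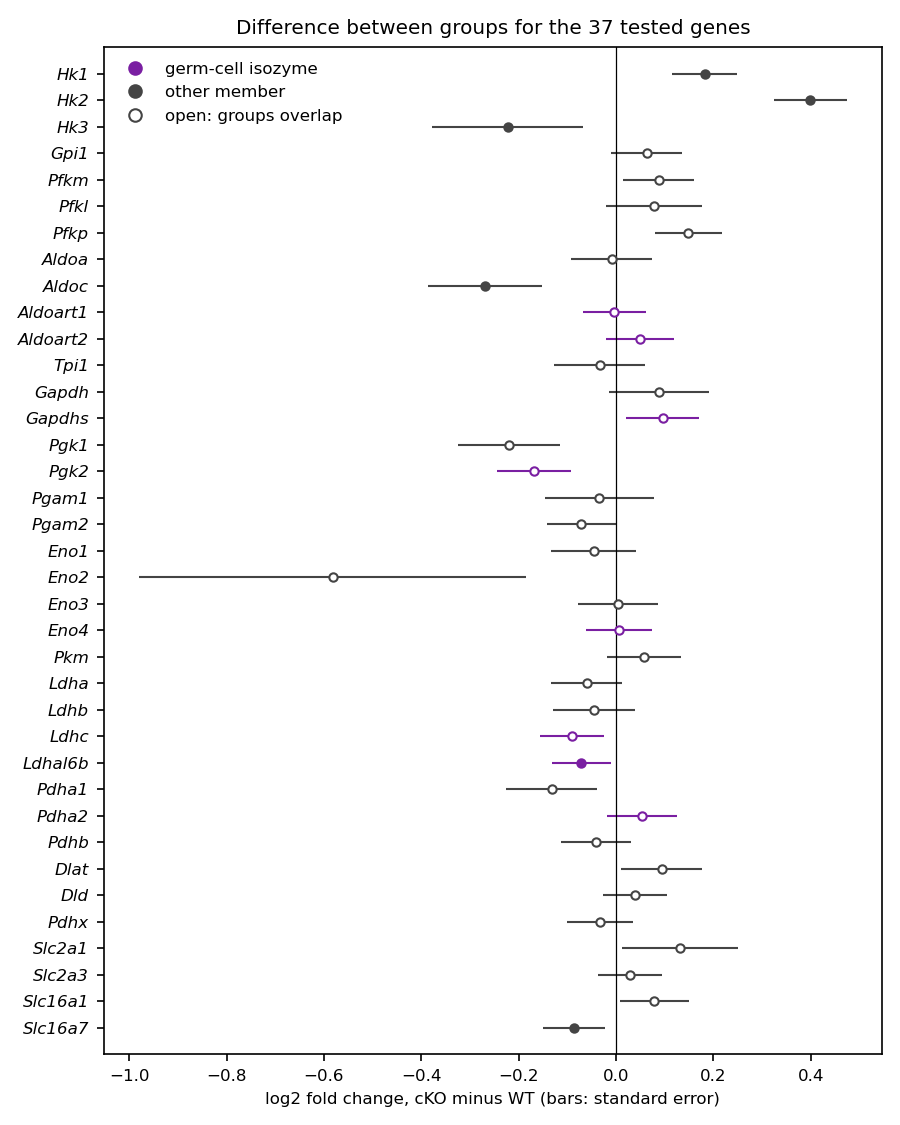
Log2 fold change (cKO minus WT, x axis) of the 37 tested genes in pathway order (y axis), with bars of 1 standard error, germ-cell isozymes in purple and filled points where the 3 WT and 3 cKO libraries do not overlap. Filled points are Hk1, Hk2, Hk3, Aldoc, Ldhal6b and Slc16a7, and 27 of the 37 points lie within 0.1 of 0.

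Hexokinases trap glucose in the cell as glucose-6-phosphate. Hk2, the form of muscle and fat that binds to mitochondria, had 35.6, 32.9 and 32.9 CPM in WT and 41.8, 44.1 and 47.8 CPM in cKO. Hk2 did not overlap between the groups, with the lowest cKO library above the highest WT library, as for 10% of all genes. Its log2 fold change was 0.40 ± 0.074 (SE), with an adjusted p of 0.276 (edgeR, unadjusted 1.75e-04), so that it did not pass. The call turned with the setting. The share of all genes that passed was 0.0183% in the main fit and 0.224% to 2.82% where Hk2 passed. Hk2 passed with DESeq2 (adjusted p 0.00509), without the filter on low counts (edgeR adjusted p 9.42e-04), with the replicate number as a block (edgeR adjusted p 0.0472), and when either WT replicate 1 (0.0437) or cKO replicate 1 (0.0117) was left out, and it was higher in cKO each time. Over its 14 alternatives the adjusted p ran from 9.42e-04 to 0.730.

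Hk1, which also gives rise to a germ-cell transcript that gene counts do not separate, stood at 1550, 1408 and 1535 CPM in WT and at 1648, 1776 and 1675 CPM in cKO. Each cKO library was above each WT library, by a log2 fold change of 0.18 ± 0.067 (edgeR adjusted p = 0.306). Hk3, a hexokinase of white blood cells, was near the bottom of the range at 1.36, 1.40 and 1.38 CPM in WT and 1.18, 1.07 and 1.30 CPM in cKO. Of its reads 22.9% lay on the strand of the gene, against 0.08% for Hk2, and its log2 fold change of -0.22 ± 0.155 had an adjusted p of 0.541. Per kb, Hk1 was 30.0 to 32.7 times as high as Hk2 in the WT libraries and 24.5 to 28.2 times in the cKO libraries, with no overlap. Another length scales this ratio by the same factor in each library.

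Markers of somatic cells of the testis were read beside these hexokinases and went both ways. Of 10 Sertoli cell markers 8 were higher in cKO, with a median log2 fold change of 0.066 and 2 without overlap (Sox9 and Wt1), beside 10% of all genes, and the list's summed levels overlapped at 1420 to 1688 CPM in WT and 1418 to 1820 CPM in cKO. All 5 endothelial markers were higher, 2 without overlap beside the same 10% of all genes. Their summed level was 39.8 to 40.9 CPM in WT and 41.9 to 50.9 CPM in cKO. By contrast, 5 of 7 Leydig cell markers (median -0.14) and 6 of 7 macrophage markers (median -0.21) were lower. So were 4 of 5 markers of peritubular myoid cells (median -0.041). The summed levels of these 3 lists overlapped. Lower without overlap were Hsd17b3 (Leydig), Tagln (myoid) and Cd14 (macrophages), beside 8.85% of all genes. The Leydig exceptions were Star (log2 fold change 0.30) and Lhcgr (0.17), both with overlap. Mrc1 (0.25) was the macrophage exception, higher without overlap beside 10% of all genes. Myh11 (0.32), with overlap, was the myoid exception. None of these markers was at 0 in every library, and none passed the edgeR test. The part of these cells in the hexokinase values was not tested.

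Glucose-6-phosphate isomerase (Gpi1) and the 3 phosphofructokinases overlapped between the groups, with log2 fold changes of 0.063 for Gpi1, 0.087 for Pfkm, 0.079 for Pfkl and 0.15 for Pfkp. Aldolases split the sugar into a pair of smaller molecules. Aldoart1 had 135, 134 and 138 CPM in WT and 142, 130 and 134 CPM in cKO. Aldoart2 had 365, 330 and 356 CPM in WT and 385, 349 and 354 CPM in cKO. In both the groups lay within each other, with log2 fold changes of -0.0035 ± 0.064 and 0.050 ± 0.070.

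The somatic partner Aldoa, at 462, 412 and 436 CPM in WT and 482, 391 and 428 CPM in cKO, overlapped as well (log2 fold change -0.0090 ± 0.083). Its symbol has a second, upstream gene identifier, with a mean of 14.2 CPM in WT and 14.7 CPM in cKO, which was left out of the counts of genes. Aldoc, the aldolase of brain, was far lower, at 7.66, 7.20 and 6.69 CPM in WT and 6.57, 4.99 and 6.28 CPM in cKO. The lowest WT library was just above the highest cKO library, and the log2 fold change of -0.27 ± 0.118 had an edgeR adjusted p of 0.346. Tpi1, next in the path, had a log2 fold change of -0.034 ± 0.093.

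Gapdhs, the sperm glyceraldehyde-3-phosphate dehydrogenase, had 1573, 1367 and 1554 CPM in WT and 1689, 1512 and 1602 CPM in cKO. Gapdh had 38.9, 32.9 and 33.0 CPM in WT and 42.1, 32.2 and 37.0 CPM in cKO. Both overlapped between the groups, and their log2 fold changes were alike at 0.096 ± 0.075 and 0.089 ± 0.102.

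Phosphoglycerate kinase makes the first ATP of the path. Pgk2, the copy used by meiotic and later germ cells, had 1180, 1154 and 1243 CPM in WT and 1160, 969 and 1053 CPM in cKO. In cKO, 2 libraries lay below the WT range and replicate 1 lay within it. The log2 fold change of -0.17 ± 0.076 had an unadjusted p of 0.0461 and an adjusted p of 0.352 (edgeR). X-linked Pgk1 had 7.74, 7.64 and 7.11 CPM in WT and 6.43, 5.72 and 7.16 CPM in cKO, a log2 fold change of -0.22 ± 0.105 (edgeR adjusted p = 0.378). So both kinases were lower on average by similar amounts, neither passed, and the share of Pgk2 in the step stayed between 99.5% and 99.6%.

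Of the phosphoglycerate mutases, Pgam2 had a log2 fold change of -0.072 ± 0.071 and Pgam1 of -0.034 ± 0.112. Enolases make phosphoenolpyruvate. Eno4, which is needed for the structure of the sperm tail, had 75.9, 75.7 and 74.8 CPM in WT and 81.4, 73.5 and 72.4 CPM in cKO. The 3 cKO libraries lay on both sides of the narrow WT range (log2 fold change 0.0057 ± 0.068). Eno1 had 205, 173 and 199 CPM in WT and 207, 172 and 180 CPM in cKO, again overlapping (log2 fold change -0.046 ± 0.087). Eno3, the muscle enolase, had a log2 fold change of 0.0044 ± 0.082. Eno2, with a mean of 0.333 CPM in WT and 0.216 CPM in cKO, had a log2 fold change of -0.58 ± 0.398, the largest in size and the least precise of the 37. Pkm, the pyruvate kinase of most tissues, had a log2 fold change of 0.057 ± 0.076.

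Lactate dehydrogenases interconvert pyruvate and lactate. Ldhc had 3836, 3930 and 3810 CPM in WT and 3847, 3419 and 3607 CPM in cKO. As for Pgk2, cKO replicates 2 and 3 lay below the WT libraries and replicate 1 lay among them (log2 fold change -0.090 ± 0.066, edgeR adjusted p = 0.560). Ldhal6b, an intronless germ-cell copy, had 679, 668 and 673 CPM in WT and 644, 651 and 628 CPM in cKO. It was the one germ-cell isozyme without overlap, yet its log2 fold change of -0.071 ± 0.060 had an adjusted p of 0.625 (edgeR). Ldha had 904, 869 and 852 CPM in WT and 919, 802 and 795 CPM in cKO, so that the groups overlapped (log2 fold change -0.061 ± 0.073), and Ldhb, the heart form, had a log2 fold change of -0.046 ± 0.084. The 4 lactate dehydrogenases were thus all lower on average in cKO, and none passed.

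Pyruvate dehydrogenase links glycolysis to the citric acid cycle. Pdha2, its germ-cell E1 alpha subunit, had 200.3, 180 and 186 CPM in WT and 208, 192 and 187 CPM in cKO. The groups overlapped, with a log2 fold change of 0.053 ± 0.071. X-linked Pdha1 had 9.88, 10.4 and 9.56 CPM in WT and 8.99, 8.31 and 9.93 CPM in cKO, also overlapping, with a log2 fold change of -0.13 ± 0.094 (edgeR adjusted p = 0.552). The subunits with a single gene, Pdhb, Dlat, Dld and Pdhx, had log2 fold changes between -0.041 and 0.094.

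Of the carriers, Slc16a7 had 677, 689 and 688 CPM in WT and 671, 651 and 614 CPM in cKO. The highest cKO library was just below the lowest WT library, with a log2 fold change of -0.086 ± 0.063 and an edgeR adjusted p of 0.564. Slc16a1, Slc2a1 and Slc2a3 overlapped, with log2 fold changes of 0.078, 0.13 and 0.030. Tested members with an unadjusted edgeR p under 0.05 or with no overlap, except Hk3, are shown in the plot of CPM per library.

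**Figure D5:**
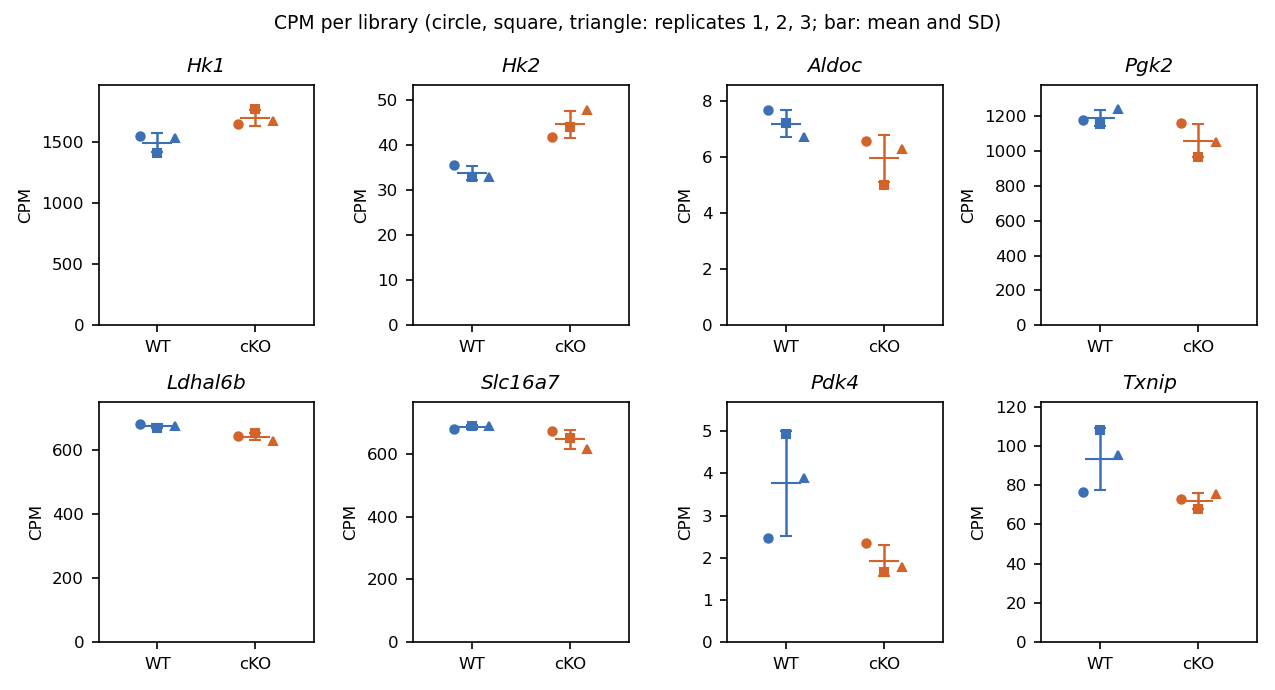
CPM (y axis, from 0) in the 3 WT and 3 cKO libraries (x axis) for 6 members and, at the end, 2 regulators of glucose and pyruvate use, Pdk4 and Txnip. Symbols mark replicates 1, 2 and 3, and bars the mean and SD. Hk2 is above the WT range in each cKO library (41.8 to 47.8 against 32.9 to 35.6 CPM), and Pgk2 overlaps through cKO replicate 1.

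The 8 germ-cell isozymes were split evenly, 4 higher and 4 lower in cKO, with a median log2 fold change of 0.0011 and a range of -0.17 to 0.096. The 29 other tested members had a median of -0.0090. The summed level of the 8 isozymes was lowest in cKO replicate 2, at 7294 CPM, and highest in cKO replicate 1, at 8157 CPM, with the WT libraries between, at 7837 to 8044 CPM. Over the 37 members, cKO replicate 2 had the lowest value for 18 and cKO replicate 1 the highest for 17, where over all genes these libraries had the lowest and the highest value for 22.7% and 17.5%.

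Markers of germ-cell stages were read beside these genes. Round spermatid markers were lower in cKO for 9 of 10 genes, 4 of them without overlap beside 8.85% of all genes, with a median log2 fold change of -0.17 and a summed level of 1857 to 1964 CPM in WT and 1667 to 1799 CPM in cKO, without overlap. Spermatogonia markers were higher for 8 of 10 genes, with a median of 0.10 and none without overlap. Spermatocyte markers had a median of 0.017 and elongating spermatid markers of -0.020, and the sums of these 3 lists overlapped. No marker of the 4 lists was at 0 in every library and none passed the edgeR test. The part of stage composition in the values of Pgk2, Ldhc and Ldhal6b was not tested.

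Other genes of glucose, pyruvate and lactate handling gave a similar count. Of 74 listed genes 69 were tested, none passed by edgeR, and 9 had an unadjusted p under 0.05, 3 higher and 6 lower in cKO, beside 7.33% higher and 6.54% lower of all genes. Their median log2 fold change was -0.012. DESeq2 called 1 of them, Txnip.

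The smallest p was that of Pdk4, a kinase that switches off pyruvate dehydrogenase and is known to rise in fasting. Pdk4 had 2.47, 4.93 and 3.89 CPM in WT and 2.34, 1.66 and 1.78 CPM in cKO, a log2 fold change of -0.96 ± 0.225 (edgeR adjusted p = 0.276). Txnip, which lowers glucose uptake, had 76.7, 108 and 95.1 CPM in WT and 72.9, 67.8 and 75.7 CPM in cKO. Its log2 fold change was -0.37 ± 0.107 (edgeR adjusted p = 0.287). For both genes WT replicate 1 lay close to the cKO libraries, and without it both passed, with adjusted p-values of 0.0126 for Pdk4 and 0.0265 for Txnip (edgeR).

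The other 4 had smaller differences. Mpc2, a subunit of the mitochondrial pyruvate carrier, had a mean of 343 ± 18.7 CPM (SD, n = 3) in WT and 298 ± 14.9 CPM in cKO, and Pdpr, the regulatory subunit of pyruvate dehydrogenase phosphatase, 41.1 ± 2.29 and 47.1 ± 3.15 CPM. Gk2, a testis glycerol kinase, had 907 ± 57 CPM in WT and 808 ± 19.8 CPM in cKO. Fbp1, which runs the phosphofructokinase step in reverse, had 653 ± 16.1 and 589 ± 23.2 CPM. Their log2 fold changes were -0.21, 0.20, -0.17 and -0.15, and their edgeR adjusted p-values 0.299 to 0.335.

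The starts of the genes were compared in the RefSeq promoter windows (GRCm38.p6, 250 bases before to 50 after each start). The germ-cell isozymes had 9 windows for 7 of the 8 genes, and the other members 40 windows for 28 genes. A germ-cell window held a median of 4 CpG dinucleotides, the window of another member 18, and the window of any gene 7 (32851 windows). The full CRE motif TGACGTCA, which reads the same on both strands and which CREM, a regulator of spermatid genes, can bind, occurred in 0 of the 9 germ-cell windows, 1 of the 40 others (Ldha) and 1.79% of all windows.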

How the data were processed

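Total RNA of whole testes was sequenced in 6 libraries. The deposited tables hold raw read counts for each gene, not normalized, in the layout of STAR's gene count output. The submitters' processing notes name STAR, HTSeq, DESeq2 and the build mm10, with no versions or roles. Each table holds unstranded counts and counts for either strand. Per the file values, 96.0% to 96.2% of stranded reads were on the opposite strand, and that column was used. Lines for reads outside single genes held 14.8% to 16.7% of a library and were left out. A library's 56991431 to 73766444 assigned reads make counting error small for most members, so the spread between libraries limits precision.

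Of 53700 identifiers 52093 matched GENCODE M21 (GRCm38), which gave symbols, exon lengths and coding sequences. The fit used edgeR 4.0.16 (limma 3.58.1, R 4.3.3): TMM scaling, genes kept by filterByExpr at its minimum count of 10, and the quasi-likelihood F test. The 21902 p-values were adjusted by Benjamini-Hochberg and called below 0.05. Its common coefficient of variation was 8.79%. CPM uses the TMM-scaled library sizes, and SE was derived from the F statistic. The step shares were tested with SciPy 1.17.1, and coding sequences aligned with Biopython 1.88. The fit was tested on simulated data.

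Values of every library are printed for the 8 germ-cell isozymes, the somatic isozyme with the highest level at each of their steps, any other member without overlap or with an unadjusted p under 0.05, and Msl3. Of the related genes, up to 6 with an unadjusted p under 0.05 and a mean of at least 1 CPM were named. The members and lists were chosen with earlier results of these data known. No 2 libraries of a group agreed within sampling noise (chi-square per degree of freedom at least 8.69). Mpc1l had no match. The alternatives were DESeq2 1.42.0, RLE scaling, library totals alone, 2 other filters, unstranded counts, a replicate block, the robust fit, an adjusted p of 0.1, other lengths for the shares, and each library left out in turn. The count of members with an unadjusted p under 0.05, and lengths counted in unshared stretches of all transcripts or of the coding transcript, were added after seeing the data.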

Additional observations from a re-analysis of the deposited data

How the results depend on the processing

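Which genes pass depends strongly on the setting in these libraries. The count over all genes was 4, and became 193 with DESeq2, 757 with no filter on low counts, 49 with the replicate block (16 higher, 33 lower), 2 with unstranded counts and 1 to 628 with 1 library left out, the highest without cKO replicate 1 and 116 without WT replicate 1. The 4 genes were 2 higher and 2 lower, against 354 higher and 403 lower with no filter, 85 and 108 with DESeq2, 20 and 96 without WT replicate 1, and 549 and 79 without cKO replicate 1. Among the members the count was 1, always Hk2, with DESeq2, with no filter and with the replicate block. The same held without either WT replicate 1 or cKO replicate 1. That was 2.63% to 2.70% of the tested members. In the same order 1.40%, 2.07%, 0.224%, 0.518% and 2.82% of all genes passed, against 0.0183% in the main fit. The count was 0 under the other alternatives, so that the leave-one-out range was 0 to 1. Among the related genes it was 1 with DESeq2 (Txnip), 3 with no filter (Myc, Pdk4 and Txnip) and 0 to 2 with 1 library left out (Pdk4 and Txnip without WT replicate 1, Pdk4 without cKO replicate 1). Members with an unadjusted p under 0.05 numbered 2 to 6 over the settings, and 2 to 4 with 1 library left out, the lowest without WT replicate 2. In the main fit 13.9% of all genes had such a p (edgeR). That share was not taken for the other settings, so this range is not a result about the members. The cause of the differences between settings was not tested.

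Values close to 0 changed sign. The log2 fold change of Eno4 became -0.00265 with at least 10 reads in every library, -0.0221 with library totals alone, -0.00378 with no filter and -0.00101 with unstranded counts. With 1 library left out, it ran from -0.0500 to 0.0377 for Eno4, -0.0398 to 0.0265 for Aldoart1, -0.0916 to 0.0607 for Aldoa, -0.0145 to 0.18 for Gapdh and -0.13 to 0.00919 for Eno1. The difference in germ-cell share, cKO minus WT in percentage points, ran from -0.0261 to 0.0493 for glyceraldehyde-3-phosphate dehydrogenase, from -0.00345 to 0.0417 for phosphoglycerate kinase and from -0.330 to 0.00221 for lactate dehydrogenase with 1 library left out, and stayed above 0 for aldolase (0.141 to 1.39), enolase (0.0859 to 1.30) and pyruvate dehydrogenase E1 alpha (0.229 to 0.572). The other named genes kept their direction under the alternatives run for them, but the size of small fold changes rested on single libraries. With 1 library left out, it ran from 0.00311 to 0.0819 for Aldoart2, 0.0339 to 0.14 for Gapdhs, 0.00457 to 0.09997 for Pdha2, -0.24 to -0.11 for Pgk2, -0.30 to -0.14 for Pgk1, -0.14 to -0.0492 for Ldhc, -0.13 to -0.0229 for Ldha, -0.20 to -0.0731 for Pdha1, -0.35 to -0.16 for Aldoc, -0.12 to -0.0514 for Slc16a7 and -0.18 to -0.0388 for Msl3. Library totals alone moved the median of all genes from 0.00311 to -0.0244. The unstranded counts give no value for Ldhal6b.

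Same-numbered libraries of the 2 groups did not all deviate together (r across genes of 0.39, 0.26 and -0.084), so the numbers were not taken to pair them. With the replicate block Hk2 had an adjusted p of 0.0472 (edgeR), and no other member or related gene passed. Depth limits Eno2, Hk3 and Pklr, and shared sequence limits Gapdh, Pgk1, Eno1 and Pgam1.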
